A study of Arabidopsis thaliana with 12 samples.

Results

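The 4 RNA-seq libraries numbered 3, 1 from each of 4 groups of Arabidopsis thaliana seedlings, were compared with the 8 libraries numbered 1 or 2, out of 12 in all. They were picked by their number and not by a measured value. The comparison itself and the gene lists were chosen with earlier results of these data known. The design text speaks of 3 independent experiments and the titles number the replicates 1 to 3, so libraries that carry the number 3 are called experiment 3 here, although no label states that equal numbers were grown together. The groups were wild-type Col-0 and the mapkkk5 mutant (mapkkk5-1 in the design text), each as mock and after chitin for 3 h, with 3 libraries per group. All seedlings were 8 days old and raised in MGRL medium with 1% sucrose and 0.2% agarose under 16 h of light at 22 °C and 8 h of dark at 20 °C, and all stood in liquid medium for 3 h before treatment. The labels give the chitin dose as 40 mM in one place and 40 µM in another, and this conflict was not settled. The mutant is 1 line, and the labels used here give no date, hour of harvest or seed stock for an experiment. Growth, harvest and library preparation of an experiment therefore cannot be told apart in what follows.

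Leaves gather light with antenna proteins encoded by the LHCA and LHCB genes, which pass its energy to photosystems I and II, and transcription of these genes is known to follow both light and the time of day. The plant circadian clock is a loop of transcription factors in which CCA1 and LHY act in the morning and repress evening genes through a short promoter sequence called the evening element. Flavonoids and their red anthocyanin derivatives, methionine-derived aliphatic glucosinolates, and the lipid polymers suberin and cutin are products of well-mapped pathways whose genes are often expressed together.

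The 300 bases before the annotated gene start are shown for 3 clock genes and 1 antenna gene that were lower in experiment 3, and these genes were picked because they hold a motif in that window, which other genes lower in experiment 3 did not all do. They come from RefSeq TAIR10.1 and are written 5′ to 3′ on the gene's strand, with the evening element AAATATCT, the G-box CACGTG and the CCA1 binding site AAAAATCT, on either strand, in capitals. GRP7, an RNA-binding protein gene under clock control (chr2:9266558-9266857, minus strand), and FKF1, a blue-light receptor of the flowering pathway (chr1:25508339-25508638, plus strand), held 3 evening elements each.
GRP7: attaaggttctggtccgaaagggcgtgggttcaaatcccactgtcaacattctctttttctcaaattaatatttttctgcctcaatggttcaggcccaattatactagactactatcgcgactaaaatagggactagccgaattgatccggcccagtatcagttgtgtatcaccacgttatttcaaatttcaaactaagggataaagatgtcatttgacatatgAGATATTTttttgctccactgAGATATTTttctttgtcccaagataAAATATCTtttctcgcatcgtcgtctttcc
FKF1: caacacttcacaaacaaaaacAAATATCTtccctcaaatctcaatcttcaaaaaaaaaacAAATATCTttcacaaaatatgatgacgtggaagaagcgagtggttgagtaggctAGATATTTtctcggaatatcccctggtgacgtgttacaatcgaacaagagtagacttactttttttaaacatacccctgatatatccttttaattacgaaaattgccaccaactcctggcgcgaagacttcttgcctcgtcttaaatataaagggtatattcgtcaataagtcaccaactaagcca
PRR7, a pseudo-response regulator that acts in the day (chr5:642031-642330, minus strand), held 1 G-box, and LHCB1.1, encoding an abundant protein of the photosystem II antenna (chr1:10475970-10476269, minus strand), held 1 CCA1 binding site.
PRR7: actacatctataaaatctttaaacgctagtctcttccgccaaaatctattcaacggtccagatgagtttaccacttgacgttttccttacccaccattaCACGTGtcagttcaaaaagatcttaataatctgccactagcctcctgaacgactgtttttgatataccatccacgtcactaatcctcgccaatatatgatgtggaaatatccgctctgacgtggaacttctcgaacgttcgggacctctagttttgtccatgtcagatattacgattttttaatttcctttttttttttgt
LHCB1.1: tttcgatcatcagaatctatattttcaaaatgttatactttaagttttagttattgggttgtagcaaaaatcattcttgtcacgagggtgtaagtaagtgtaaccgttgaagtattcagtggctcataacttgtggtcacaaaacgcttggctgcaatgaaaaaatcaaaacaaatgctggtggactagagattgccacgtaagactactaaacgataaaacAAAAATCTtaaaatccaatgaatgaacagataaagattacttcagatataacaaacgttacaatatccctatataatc
The longer form AAAATATCT, which contains the shorter one, lay in the window of 4 of 11 clock genes lower in experiment 3, in 4.9% of the 755 windows of all genes lower there, in 1.8% of the 1070 windows of genes higher there and in 2.9% of the 20756 windows of genes tested. AAATATCT was found before 5 of these 11 clock genes and 8.7% of all lower genes, against 5.7% of all genes tested, and before 0 of 17 photosynthesis genes lower in experiment 3. The G-box was in 11.5% of the windows of lower genes, 8.1% of those of higher genes and 7.9% of all. TTGACT, a form of the W-box, was in 28.1% of the windows of higher genes, 19.2% of those of lower genes and 21.9% of all. The CCA1 binding site was in 7.7% of the windows of lower genes and 7.9% of all. It lay before 0 of the 11 clock genes and 2 of the 17 photosynthesis genes lower in experiment 3. ACGTGG, the ABRE core, was before 6 of the 11 clock genes, in 14.2% of the windows of lower genes and in 9.9% of all. These shares describe letters only.

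The libraries held between 15455836 and 20179428 counted reads, and those of experiment 3 between 16023616 and 20179428, so 3 reads stood for 0.152 to 0.2 CPM (counted reads scaled to an equal library total) in a library. Reads from organelle genes were 0.32% to 0.47% of a library and the 10 most counted genes 2.82% to 3.55%. MAPKKK5, the gene the mutant is named for, was read at 3.81 CPM in mapkkk5 mock of experiment 3 against 21.7 CPM in Col mock. In chitin it was at 13.6 CPM in mapkkk5 against 45.3 CPM in Col. The mutant was also lower in mock of experiment 1 (3.9 against 28.1 CPM) and experiment 2 (5.29 against 25.7 CPM). In chitin the gap was smaller there, with 26.7 against 39.9 CPM in experiment 1 and 32.9 against 37.5 CPM in experiment 2. The 28 seed storage and late embryogenesis genes summed to 139 CPM in mapkkk5 mock and 155 CPM in mapkkk5 chitin of experiment 3, against 5.96 and 4.71 CPM in the Col libraries of experiment 3 and 4.31 to 60.2 CPM in the 8 others. The mapkkk5 libraries of experiment 3 thus stood apart in seed RNA. The test of experiment 3 against experiments 1 and 2 takes Col and mapkkk5 together, and 0 of the 19 members measured passed it. None was among the 7 genes that passed the test by genotype given below. Summed root markers ranged from 2530 to 6040 CPM in experiment 3 and from 1780 to 4380 CPM in experiments 1 and 2, and PYK10 alone made up 70.3% to 86.7% of the sum. Without PYK10 the sum in experiment 3 was the highest in both mock groups (861 CPM in Col and 719 CPM in mapkkk5, against 586 to 662 CPM), was the lowest in Col chitin (562 against 596 and 627 CPM) and lay between the others in mapkkk5 chitin (540 against 565 and 466 CPM). In RNA of seedlings, fewer cells of a type and less RNA per cell cannot be told apart.

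Once the group means were removed, the libraries of experiment 3 resembled each other. Correlations of log2 CPM deviations across genes were 0.24 to 0.51 among the 6 pairs of libraries of experiment 3 (median 0.385), against -0.04 to 0.38 in experiment 1 (median 0.275) and 0.2 to 0.33 in experiment 2 (median 0.27). The first component of the deviations held 30.6% of their variance, and the 4 libraries of experiment 3 scored 23.56 to 31.48 on it while all others scored between -19.5 and -8.84. The contrast of experiment 3 with experiments 1 and 2 took 30.1% of the sum of squares within groups, that of experiment 2 with experiment 1 took 17.2%, and an equal share per degree of freedom would be 12.5%.

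**Figure D1:**
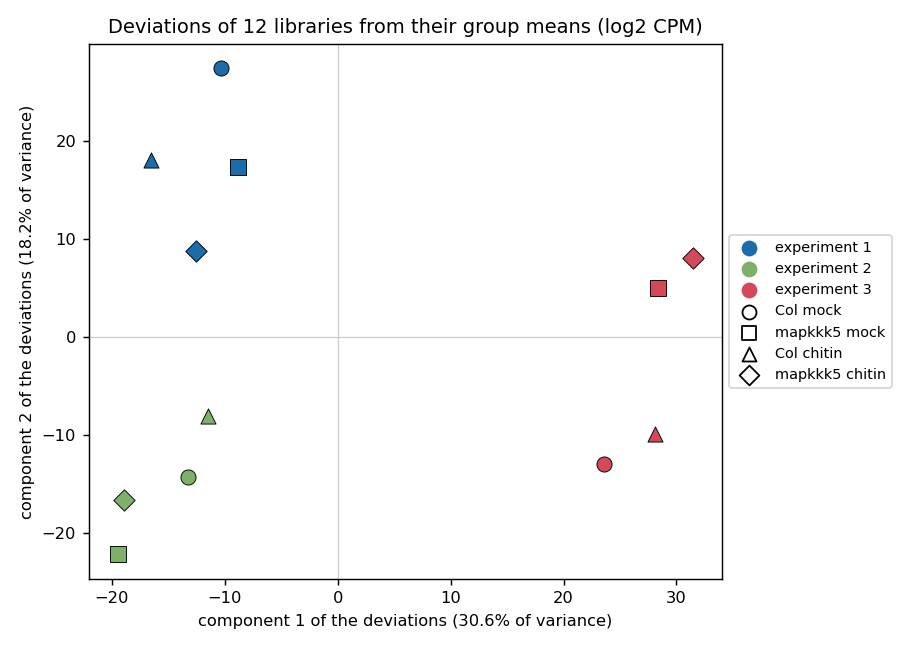
Scores of the 12 libraries on the first (x axis, 30.6% of variance) and second (y axis) component of the log2 CPM deviations from the group means, coloured by experiment and shaped by group. The 4 libraries of experiment 3 lie at 23.56 or more on the x axis and all others at -8.84 or less.

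Of 20994 genes tested, 1835 (8.74%) differed between experiment 3 and experiments 1 and 2 by edgeR's quasi-likelihood test at a Benjamini-Hochberg adjusted p below 0.05, of which 1074 (5.12%) were higher and 761 (3.62%) lower in experiment 3. Higher genes were thus 58.5% of the calls, but 50.1% under upper-quartile scaling (912 higher and 908 lower), so the excess of higher genes depends on the scaling. The test counts the 4 libraries of experiment 3 as separate, although they stand for the same experiment here. The differences were mostly modest, with a median size of 0.49 on the log2 scale among called genes, and 100 higher and 107 lower genes passed 2-fold. In 1582 of the called genes the library of experiment 3 lay outside the range of experiments 1 and 2, on the same side, in all 4 groups, which held for 15.4% of all genes tested (8.51% above and 6.9% below). The calls rest on the same values, so this is no separate evidence for them. Genes named below for the largest differences were picked from these, so their order in each group follows from that rule. The count of calls fell to 953 without Col mock of experiment 3, 807 without Col chitin, 935 without mapkkk5 mock and 921 without mapkkk5 chitin, and rose to 3101 without all of experiment 2. Without both mapkkk5 libraries of experiment 3, which held the most seed RNA, 304 of 21114 genes tested were called (186 higher and 118 lower). Among them were 11 lower photosynthesis, 5 higher flavonoid, 4 higher glucosinolate, 5 lower low-oxygen, 1 higher suberin and 0 clock genes. Without both Col libraries of experiment 3 there were 158 calls among 21132 genes tested (95 higher and 63 lower). Of these calls 8 were lower photosynthesis and 3 higher flavonoid genes, with none in the other 4 lists. Those 4 lists had 11 to 27 measured genes in the full fit. With so few calls among all genes, a count of 0 there does not show that a difference was absent.

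Among the largest decreases was that of CIPK20, which encodes a protein kinase regulated by calcium sensor proteins. It was read at 4.81, 4.84, 7.52 and 6.8 CPM in experiment 1 (in Col mock, mapkkk5 mock, Col chitin and mapkkk5 chitin, the order used throughout), 1.3, 1.8, 1.4 and 2.76 in experiment 2 and 0.292, 0.25, 0.355 and 0.229 in experiment 3. All values of experiment 3 were below all others, those of experiment 2 lay between, and the log2 difference, given here and below ± its standard error, was -3.76 ± 0.64 (adjusted p = 0.00276). In the libraries of experiment 3, 3 reads stood for 0.152 to 0.187 CPM, so the size of this difference rests on few reads. PIF4, a phytochrome-interacting transcription factor that promotes stem growth, was read at 8.86, 8.91, 4.2 and 8.34 CPM in experiment 1, 3.54, 4.26, 1.67 and 1.92 in experiment 2 and 1.81, 1.75, 1.27 and 0.688 in experiment 3. Experiment 3 was the lowest in each group, although its range overlapped that of experiment 2, with a log2 difference of -1.9 ± 0.45 (adjusted p = 0.0178), and the call was lost without Col mock (adjusted p = 0.0605), mapkkk5 mock (0.0678) or mapkkk5 chitin (0.0847) of experiment 3. YUC8, which encodes an enzyme of auxin synthesis, was read at 10, 10.5, 12.8 and 12.4 CPM in experiment 1, 10.9, 11.1, 14.5 and 11.1 in experiment 2 and 3.62, 4.06, 6.13 and 4.82 in experiment 3. Every library of experiment 3 lay below every library of the others, with a log2 difference of -1.33 ± 0.1 (adjusted p = 2.15e-05).

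At the other end, PLP5, a patatin-like lipid acyl hydrolase gene, was read at 0.274, 0.0557, 3.07 and 3.24 CPM in experiment 1, 0.648, 0.218, 5.87 and 6.26 in experiment 2 and 2.86, 2.19, 18.1 and 14.5 in experiment 3. Experiment 3 was the highest in each group while, within each experiment, chitin libraries exceeded mock libraries, and the log2 difference was 2.15 ± 0.28 (adjusted p = 0.000552). The value of 0.0557 CPM in mapkkk5 mock of experiment 1 lay below the 0.167 CPM that 3 reads stood for there. CYP71A19 and TPS12, a cytochrome P450 and a terpene synthase gene with consecutive locus numbers on chromosome 4, were higher by 1.9 ± 0.25 (adjusted p = 0.000623) and 1.41 ± 0.26 (adjusted p = 0.00423). CYP71A19 was read at 1.53, 1.73, 0.689 and 0.744 CPM in experiment 1, 2.59, 3.55, 1.27 and 1.13 in experiment 2 and 7.13, 5.62, 5.98 and 4.53 in experiment 3. All 4 values of experiment 3 lay above the other 8, and experiment 2 exceeded experiment 1 in each group. Other genes with large increases were JAL22, a jacalin-type lectin gene (1.27 ± 0.14, adjusted p = 0.000198), XTH24, encoding a cell wall xyloglucan enzyme (1.18 ± 0.11, adjusted p = 5.84e-05), and DOX1, a fatty acid dioxygenase gene of defence (1.17 ± 0.1, adjusted p = 3.59e-05). PDF1.3, a defensin gene, was higher by 1.36 ± 0.31 (adjusted p = 0.0146), and its call was lost without Col mock (adjusted p = 0.125) or Col chitin (0.0811) of experiment 3.

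The light-harvesting antenna genes were lower in experiment 3. Of 18 genes found by symbol, 17 passed the test as lower and 1 as higher (median log2 difference -1.3, against 0.01 over all genes tested, of which 3.62% were called lower), and 10 of the 18 passed 2-fold. LHCB1.1 was read at 525, 373, 397 and 268 CPM in experiment 1, 258, 323, 206 and 252 in experiment 2 and 74, 52.9, 55 and 48.1 in experiment 3. The 4 values of experiment 3 lay far below the other 8 with no overlap, and the log2 difference was -2.5 ± 0.2 (adjusted p = 2.15e-05). LHCB2.1, a second type of major antenna protein, was read at 82.9, 69, 90.6 and 104 CPM in experiment 1, 37.3, 41.8, 44.4 and 49.1 in experiment 2 and 15.5, 16, 14.8 and 16.6 in experiment 3. Its values fell into 3 separate ranges, highest in experiment 1 and lowest in experiment 3, with a log2 difference of -2.03 ± 0.28 (adjusted p = 0.000692). LHCB3, the third type, was read at 734, 666, 393 and 422 CPM in experiment 1, 442, 572, 270 and 320 in experiment 2 and 206, 206, 123 and 129 in experiment 3. Experiment 3 did not overlap the others, with a log2 difference of -1.51 ± 0.14 (adjusted p = 5.84e-05).

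The remaining antenna genes differed by varying amounts. The other major antenna genes differed by -2.04 (LHB1B1), -2.01 (LHCB2.2), -1.83 (LHCB1.2), -1.72 (LHB1B2), -1.54 (LHCB2.3) and -0.93 (LHCB1.3), the minor photosystem II antenna genes by -1.12 (LHCB4.2), -0.85 (LHCB6), -0.57 (LHCB5) and -0.36 (LHCB4.1), and the photosystem I genes by -1.49 (LHCA4), -0.96 (LHCA1), -0.77 (LHCA3) and -0.37 (LHCA2). The calls of LHCA2 and LHCB4.1 were lost without Col chitin of experiment 3 (adjusted p = 0.0676 and 0.0514), and that of LHCA2 also without mapkkk5 chitin (0.0665). LHCB4.3 was the exception, at 40.2, 28.5, 31.2 and 27.5 CPM in experiment 1, 58.9, 55.7, 39.1 and 36.2 in experiment 2 and 101, 68.9, 53.7 and 57.7 in experiment 3. It was highest in experiment 3 in each group, with a log2 difference of 0.81 ± 0.15 (adjusted p = 0.0052). The coding sequences of LHCB1.1, LHCB1.2 and LHCB1.3 share 95.6% to 96.4% of their 804 bases, so reads could be assigned to the wrong copy. Their summed level was 5050 to 7170 CPM in experiment 1, 3450 to 5010 CPM in experiment 2 and 1850 to 2830 CPM in experiment 3, with no overlap between experiment 3 and the others.

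**Figure D2:**
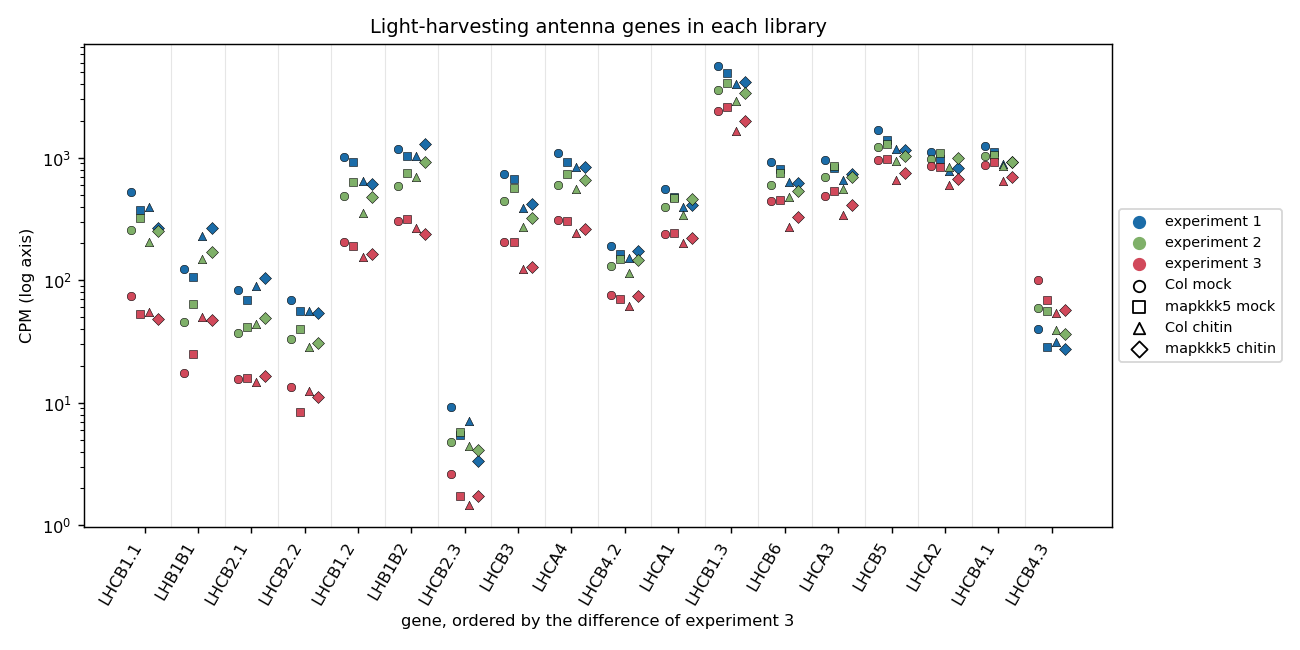
CPM (y axis, log scale) of 18 light-harvesting antenna genes (x axis, ordered by the difference of experiment 3) in each of 12 libraries, coloured by experiment and shaped by group. In each group experiment 3 lies lowest at every gene but LHCB4.3, and the gap is widest for LHCB1.1, with a log2 difference of -2.50.

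Photosynthesis genes outside the antenna went both ways. In the list of 30 photosynthesis genes 17 were lower and 6 higher, against 3.62% and 5.12% of all genes. The 6 higher ones all encode proteins of carbon fixation. RBCS1B, a small subunit gene of Rubisco, was read at 1330, 1170, 539 and 640 CPM in experiment 1, 1420, 1410, 541 and 637 in experiment 2 and 1870, 1800, 851 and 807 in experiment 3. Each group had its highest value in experiment 3, with a log2 difference of 0.48 ± 0.07 (adjusted p = 0.00157). RBCS2B and SBPASE, a Calvin cycle phosphatase gene, were higher by 0.57 ± 0.1 (adjusted p = 0.00426) and 0.42 ± 0.07 (adjusted p = 0.0037). GAPB (0.32 ± 0.07, adjusted p = 0.0145), the Rubisco activase gene RCA (0.32 ± 0.09, adjusted p = 0.048) and PRK (0.38 ± 0.1, adjusted p = 0.0376) completed the set. All 3 calls were lost without Col mock of experiment 3 (adjusted p = 0.0698, 0.124 and 0.0906) or mapkkk5 mock (0.0977, 0.185 and 0.158), so that the count fell to 3 without either library. RCA was lost in 7 further fits without 1 library (adjusted p = 0.0554 to 0.157) and PRK in 5 (0.0611 to 0.157). Besides the 14 antenna genes of the list, PSBO1, PSAD1 and PSAE1, encoding subunits of the photosystems, were lower, at -0.3 ± 0.08 (adjusted p = 0.0375), -0.48 ± 0.08 (adjusted p = 0.00257) and -0.45 ± 0.08 (adjusted p = 0.00407). The call of PSBO1 was lost without any 1 library of experiment 3 (adjusted p = 0.0895 to 0.14) and in 3 of the 8 other cases.

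Part of the clock list was lower in experiment 3. Of 27 measured, 11 passed the test as lower and 0 as higher (median log2 difference -0.33), against 3.62% of all genes called lower, and 16 did not pass. PRR7 was read at 28.4, 24, 29 and 29.1 CPM in experiment 1, 15.3, 12.6, 16 and 18.7 in experiment 2 and 6.9, 5.56, 11.2 and 9.07 in experiment 3. In each group experiment 1 was the highest and experiment 3 the lowest, with a log2 difference of -1.42 ± 0.24 (adjusted p = 0.00249). FKF1 was read at 37.4, 32.8, 36.5 and 41.7 CPM in experiment 1, 24.6, 28.3, 24.6 and 29.6 in experiment 2 and 16.9, 17.8, 20 and 18.9 in experiment 3. All 4 values of experiment 3 lay below the other 8, with a log2 difference of -0.8 ± 0.14 (adjusted p = 0.00332).
GRP7, among the most abundant transcripts of the list, was read at 3900, 3930, 2650 and 3060 CPM in experiment 1, 2810, 3560, 1980 and 2930 in experiment 2 and 2230, 2600, 1520 and 1730 in experiment 3. Within each group experiment 3 was the lowest, although the mock libraries of experiment 3 overlapped the chitin libraries of the others, and the log2 difference was -0.63 ± 0.1 (adjusted p = 0.00238). ELF4, a subunit of the evening complex, differed by -0.4 ± 0.07 (adjusted p = 0.0023). The remaining called members were the morning factor CCA1 (-0.98), the evening gene GI (-0.88), the morning coactivators LNK2 (-0.86) and LNK1 (-0.85), the evening complex gene LUX (-0.59), PRR3 (-0.45) and GRP8 (-0.35). LHY (-0.53), TOC1 (-0.25), PRR9 (0.07) and RVE8 (0.01) did not pass. Without mapkkk5 mock of experiment 3 the count fell to 7, as CCA1, GI, LNK1 and LNK2 were then not called (adjusted p = 0.0707, 0.0656, 0.0621 and 0.0999). CCA1 was also lost without Col chitin of experiment 3 (0.0624), GI without Col mock (0.052) or mapkkk5 chitin (0.0593) of experiment 3, and LNK2 without mapkkk5 chitin of experiment 3 (0.118) or Col chitin of experiment 1 (0.0528).

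Light signalling genes showed few calls. Of 21 measured, 3 were lower and 1 was higher (median -0.07), against 3.62% and 5.12% of all genes, so the higher count is at the background. PORB, an enzyme of chlorophyll synthesis, and BBX24, a B-box transcription factor of light responses, were lower, at -0.58 ± 0.08 (adjusted p = 0.000593) and -0.51 ± 0.07 (adjusted p = 0.00073), beside PIF4. PORC, a relative of PORB, was higher by 0.23 ± 0.07 (adjusted p = 0.0494), but 10 of the 12 fits that left out 1 library lost this call (adjusted p = 0.0625 to 0.226), among them the 4 without a library of experiment 3. Without mapkkk5 chitin of experiment 2 the count of lower genes was 6. The other 17 did not pass.

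Many flavonoid and anthocyanin genes were higher in experiment 3. Of 17 measured, 9 passed as higher and 0 as lower (median log2 difference 0.66), against 5.12% of all genes called higher. DFR, the enzyme that commits flavonoids to anthocyanins, was read at 7.6, 14.9, 3.38 and 6.91 CPM in experiment 1, 6.6, 8.73, 4.53 and 7.95 in experiment 2 and 19.4, 31.5, 12.4 and 16.6 in experiment 3. In all 4 groups experiment 3 was highest, with a log2 difference of 1.41 ± 0.13 (adjusted p = 5.84e-05). GSTF12, needed for anthocyanin storage in the vacuole, was read at 10.4, 15.7, 5.39 and 7.87 CPM in experiment 1, 6.37, 11.6, 5.47 and 7.67 in experiment 2 and 18.5, 32, 10.4 and 13.9 in experiment 3. It ranked highest in experiment 3 within every group, with a log2 difference of 1.05 ± 0.12 (adjusted p = 0.00028). UF3GT, an anthocyanin glycosyltransferase gene outside the list, was higher by 1.32 ± 0.21 (adjusted p = 0.00173).
The anthocyanin activator MYB90 was higher by 0.97 ± 0.12 (adjusted p = 0.000413), LDOX by 1.16 ± 0.16 (adjusted p = 0.000713), MYB75 by 1.26 ± 0.3 (adjusted p = 0.0196) and the flavonol regulators MYB11 and MYB111 by 1.24 ± 0.25 (adjusted p = 0.00819) and 0.66 ± 0.12 (adjusted p = 0.00337). The glycosyltransferase genes UGT78D1 and UGT78D2 were higher by 0.59 ± 0.07 (adjusted p = 0.000411) and 0.38 ± 0.07 (adjusted p = 0.00639). MYB75 was not called without Col mock (adjusted p = 0.166) or mapkkk5 mock (0.0656) of experiment 3, and MYB11 not without mapkkk5 mock (0.0675). The early pathway genes CHS, CHI, F3H and FLS1 had differences of 0.27, 0.26, 0.33 and 0.25 that did not pass.

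Most genes of aliphatic glucosinolate synthesis were higher as well. Of 17 measured, 13 were higher and 0 lower (median log2 difference 0.43), against 5.12% of all genes called higher. CYP79F1, which starts the core structure, was read at 60.1, 66.3, 3.01 and 13.8 CPM in experiment 1, 37.5, 45, 5.47 and 3.95 in experiment 2 and 93.5, 84.4, 19.4 and 22.7 in experiment 3. Chitin libraries lay below mock libraries in every experiment, experiment 3 was the highest in each group, and the log2 difference was 1.2 ± 0.26 (adjusted p = 0.0128). FMOGS-OX1, a side chain oxygenase gene, was read at 11.2, 12.1, 3.32 and 3.14 CPM in experiment 1, 7.43, 11.1, 3.8 and 3.55 in experiment 2 and 19.4, 16.2, 7.55 and 7.17 in experiment 3. It too was highest in experiment 3 in each group (0.91 ± 0.13, adjusted p = 0.000969). CYP79F2 and IMD1, an enzyme of chain elongation, were higher by 0.51 ± 0.09 (adjusted p = 0.00258) and 0.46 ± 0.07 (adjusted p = 0.00191). The regulators MYB28 (0.04) and MYB29 (0.49) did not pass. Without Col chitin or mapkkk5 chitin of experiment 3 the count was 6, and CYP79F1 was not called (adjusted p = 0.0783 and 0.0561), while FMOGS-OX1, CYP79F2 and IMD1 were called without any 1 library.

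**Figure D3:**
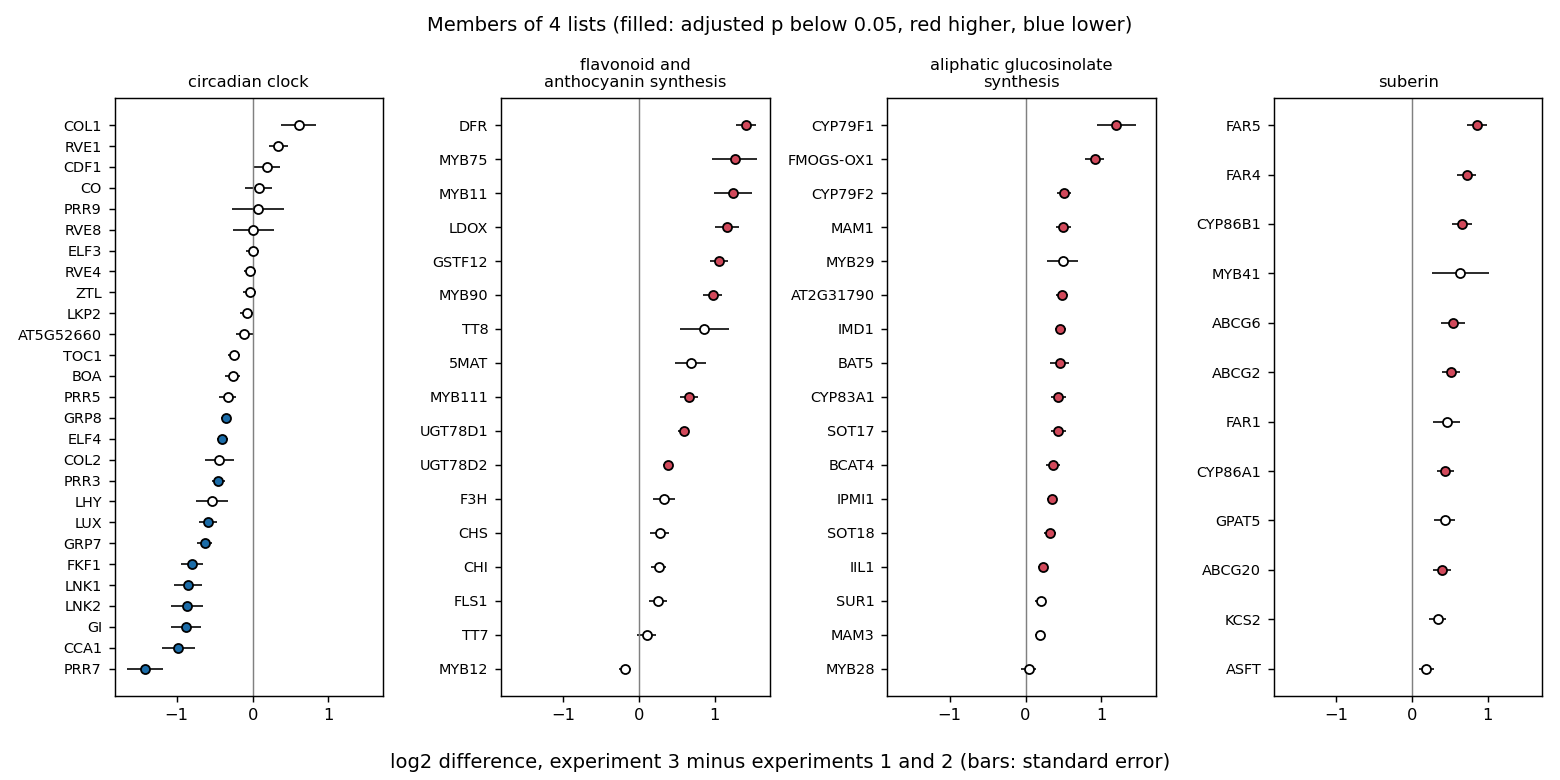
Log2 difference between experiment 3 and experiments 1 and 2 (x axis, bars are standard errors) of the measured members (y axis) of the circadian clock, flavonoid and anthocyanin, aliphatic glucosinolate and suberin lists, filled where the adjusted p is below 0.05. In the clock list 11 are filled as lower, and in the others 9, 13 and 7 as higher.

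Genes of the suberin and cuticle polymers showed increases too. Of 12 suberin genes 7 passed as higher and 0 as lower (median 0.49, with 5.12% of all genes called higher), led by the fatty acyl reductase genes FAR5 and FAR4 and by CYP86B1, which adds hydroxyl groups to long fatty acids. FAR5 was read at 9.79, 9.85, 10 and 11.2 CPM in experiment 1, 15.4, 10.9, 16.5 and 11.5 in experiment 2 and 22.8, 18.1, 21.1 and 24.5 in experiment 3. All 4 values of experiment 3 lay above the other 8, with a log2 difference of 0.86 ± 0.13 (adjusted p = 0.00152), and FAR4 and CYP86B1 were higher by 0.72 ± 0.12 (adjusted p = 0.00284) and 0.66 ± 0.13 (adjusted p = 0.00698). The count was 3 without Col mock, Col chitin or mapkkk5 chitin of experiment 3 and 4 without Col chitin of experiment 1, and FAR5, FAR4 and CYP86B1 were called in every fit without 1 library. Of 8 cuticle genes 3 were higher (median 0.42), among them the wax elongase gene KCS6 (0.56 ± 0.09, adjusted p = 0.00247) and the cutin gene GPAT6 (0.53 ± 0.1, adjusted p = 0.00404).

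Root markers went both ways, with 3 lower and 5 higher of 22 measured (median 0.17), against 3.62% and 5.12% of all genes, and the 3 lower ones encode transcription factors of root patterning. PLT1, a transcription factor of the root stem cell niche, was read at 5.14, 8.18, 5.77 and 7.49 CPM in experiment 1, 8.19, 7.2, 7 and 5.98 in experiment 2 and 2.75, 2.31, 2.64 and 3.04 in experiment 3. All 4 values of experiment 3 lay below the other 8, with a log2 difference of -1.35 ± 0.16 (adjusted p = 0.000344). PLT2 and SHR, regulators of root meristem and ground tissue, were lower, at -0.84 ± 0.18 (adjusted p = 0.00977) and -0.45 ± 0.07 (adjusted p = 0.00151), and the call of PLT2 was lost without mapkkk5 mock of experiment 3 (adjusted p = 0.0553). PYK10, the root beta-glucosidase, was read at 3490, 3280, 1410 and 1460 CPM in experiment 1, 3770, 2930, 1820 and 1310 in experiment 2 and 5180, 4670, 2770 and 1990 in experiment 3. Its highest value in each group came from experiment 3, with a log2 difference of 0.6 ± 0.08 (adjusted p = 0.000761). HKT1, THAS1, LRX1 and PRP3 were the other higher members, and the count of 5 fell to 2 without Col chitin or mapkkk5 mock of experiment 3 and to 3 without Col mock of experiment 3, Col mock or Col chitin of experiment 1 or mapkkk5 mock of experiment 2. Without mapkkk5 chitin of experiment 3 it was 5, but LRX1 (adjusted p = 0.124) and PRP3 (0.15) were not called. The other 14 did not pass.
RGF peptides, known to maintain PLETHORA proteins such as PLT1 in the root meristem, were looked at after RGF2 stood out. RGF2 was read at 2.35, 5.12, 3.95 and 5.1 CPM in experiment 1, 4.42, 4.09, 4.47 and 3.78 in experiment 2 and 0.701, 2, 0.558 and 1.72 in experiment 3. All 4 values of experiment 3 lay below the other 8 (-1.8 ± 0.27, adjusted p = 0.00122). RGF3, RGF4 and RGF8 were also lower (-1.47, -1.44 and -0.68), the other 4 of 8 measured did not pass, and the call of RGF8 was lost in 6 of the 12 fits without 1 library (adjusted p = 0.0535 to 0.14). RTFL9, another gene of a small peptide, was lower, at -1.63 ± 0.22 (adjusted p = 0.000623).

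Several nutrient uptake genes were higher in experiment 3. In the nitrate list 4 of 20 passed as higher and 0 as lower, against 5.12% of all genes called higher, and the median was 0.09. NRT1.1, a nitrate transporter and sensor, was read at 257, 256, 98 and 132 CPM in experiment 1, 257, 226, 105 and 103 in experiment 2 and 377, 328, 238 and 203 in experiment 3. Experiment 3 was the highest in each group, with a log2 difference of 0.76 ± 0.11 (adjusted p = 0.000932). NRT3.1, a partner of high-affinity transporters, was higher by 0.45 ± 0.08 (adjusted p = 0.00357), NRT2.1 by 0.7 ± 0.13 (adjusted p = 0.0059) and the nitrate reductase gene NIA2 by 0.29 ± 0.07 (adjusted p = 0.016). NRT2.1 and NIA2 were not called without Col chitin of experiment 3 (adjusted p = 0.0531 and 0.0959), nor NIA2 without mapkkk5 mock (0.102), so 2 remained without Col chitin.
SULTR1;2, the main root sulfate transporter, was read at 25.9, 28.3, 45.1 and 45.2 CPM in experiment 1, 38, 31.2, 66.1 and 50.2 in experiment 2 and 60.1, 46.5, 162 and 86.7 in experiment 3. It was highest in experiment 3 in each group (1.01 ± 0.14, adjusted p = 0.000699), and 5 of 14 sulfur genes were higher (median 0.29), against 5.12% of all genes called higher. That count was 2 or 3 in 10 of the 12 fits without 1 library, and SULTR1;2 was called in each. The phosphate transporter gene PHT1;1 was higher by 0.67 ± 0.09 (adjusted p = 0.000623) and called without any 1 library, among 5 of 17 phosphate genes that were higher (median 0.43). Without Col chitin of experiment 3 that count was 1, without mapkkk5 chitin 2, and without Col mock or mapkkk5 mock of experiment 3, Col mock or Col chitin of experiment 1 or mapkkk5 mock of experiment 2 it was 3. Iron genes went both ways, with 4 higher and 2 lower of 20 (median -0.03), against 5.12% and 3.62% of all genes. IRT1, the iron uptake transporter of roots, and FER1, the iron storage protein ferritin, were lower, at -1.22 ± 0.22 (adjusted p = 0.00397) and -0.71 ± 0.12 (adjusted p = 0.00284), while NAS4, of iron chelator synthesis, was higher by 0.96 ± 0.13 (adjusted p = 0.000732). The 4 became 2 without Col chitin or mapkkk5 mock of experiment 3 and 1 without mapkkk5 chitin.

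Jasmonate genes leaned towards higher values. Of 26 measured, 6 were higher and 0 lower (median 0.49), where 5.12% of all genes were called higher. LOX2, a chloroplast lipoxygenase of jasmonate synthesis, was read at 151, 111, 69.1 and 108 CPM in experiment 1, 101, 93, 59.1 and 47.8 in experiment 2 and 370, 222, 171 and 145 in experiment 3. Levels of experiment 3 exceeded the others in each group, with a log2 difference of 1.25 ± 0.17 (adjusted p = 0.000713). AOC1 and the repressor gene JAZ2 were higher by 0.67 ± 0.11 (adjusted p = 0.00266) and 0.44 ± 0.08 (adjusted p = 0.00415). The count was 3 without Col mock of experiment 3 and 11 without mapkkk5 chitin of experiment 1. The group medians were 0.91 in Col mock, 0.40 in Col chitin, 0.44 in mapkkk5 mock and 0.02 in mapkkk5 chitin. Of 21 genes of early pattern-triggered immunity, which chitin is known to induce, 3 were higher (PER4, PUB22 and PUB23) and 0 lower, with a median of 0.15, and without mapkkk5 chitin of experiment 3 none was called, without Col mock or Col chitin 1. FRK1 (0.23), WRKY33 (0.16) and RBOHD (0.2) did not pass.

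Low-oxygen genes were lower in part, and unevenly. Of 11 measured, 6 passed as lower and 0 as higher (median -0.79), where 3.62% of all genes were called lower. HRE2, a transcription factor of the hypoxia response, was read at 11.4, 7.02, 2.88 and 1.65 CPM in experiment 1, 5.01, 6.55, 4.8 and 7.11 in experiment 2 and 2.16, 2.75, 0.659 and 1.89 in experiment 3. Experiment 3 was the lowest in 3 of the 4 groups, while in mapkkk5 chitin experiment 1 was slightly lower, and the log2 difference was -1.66 ± 0.37 (adjusted p = 0.0129). HB1, a haemoglobin gene induced by low oxygen, was read at 191, 142, 215 and 188 CPM in experiment 1, 113, 105, 234 and 258 in experiment 2 and 61.4, 86.3, 103 and 181 in experiment 3. Its lowest value in each group came from experiment 3, by a small margin in mapkkk5 chitin, with a log2 difference of -0.79 ± 0.18 (adjusted p = 0.0132). The group medians were -1.26 in Col mock, -1.12 in Col chitin, -0.43 in mapkkk5 mock and -0.32 in mapkkk5 chitin. The count fell to 1 without Col mock or Col chitin of experiment 3, where neither HRE2 (adjusted p = 0.0639 and 0.07) nor HB1 (0.0747 and 0.089) was called, and rose to 11 without mapkkk5 chitin of experiment 1. Among 21 genes of sugar starvation and darkness 4 were lower and 1 higher, and the count of 4 was 2 without Col mock, Col chitin or mapkkk5 mock of experiment 3, while the higher gene was lost without Col mock, mapkkk5 mock or mapkkk5 chitin of experiment 3. DRM2 and DYL1, related genes of dormancy-associated proteins, kept their calls. DRM2 was read at 42.2, 53.5, 303 and 191 CPM in experiment 1, 52.5, 46.8, 299 and 174 in experiment 2 and 11.4, 12.7, 86.3 and 114 in experiment 3. Within both treatments all values of experiment 3 lay below the others, and the differences were -1.56 ± 0.18 (adjusted p = 0.000268) for DRM2 and -0.97 ± 0.08 (adjusted p = 3.59e-05) for DYL1.

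Of the 12 reference genes 0 were called, with a median of 0.04, where 8.74% of all genes tested were called. In so small a list a count of 0 is near that share and does not show that the genes stayed level. Against experiment 1 alone, 1 reference gene, ACT2, was called higher by the edgeR test (0.37 ± 0.06, adjusted p = 0.00137). No member was called in the lists for copper, touch, endoplasmic reticulum chaperones, ribosomes or the stomatal lineage, and at most 2 in either direction in those for heat shock, cold and abscisic acid, salicylic acid, oxidative stress, auxin, brassinosteroids and gibberellin, cytokinin, cell division, senescence, flowering time, vascular tissue and shoot or leaf markers. HSFA2, a heat stress factor, was lower, at -0.69 ± 0.17 (adjusted p = 0.0217), a call lost without Col mock (adjusted p = 0.103), mapkkk5 mock (0.106) or mapkkk5 chitin (0.0534) of experiment 3. GOLS1, of galactinol synthesis, and the cytokinin response regulator ARR7 were higher by 1.04 ± 0.14 (adjusted p = 0.000713) and 0.36 ± 0.07 (adjusted p = 0.0047) and called without any 1 library. Their lists as a whole did not lean higher. In the cold and abscisic acid list 1 of 27 was called higher and 19 differences were negative (median -0.13). The cytokinin list had 2 of 11 called higher and 7 negative differences (median -0.16).

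**Figure D4:**
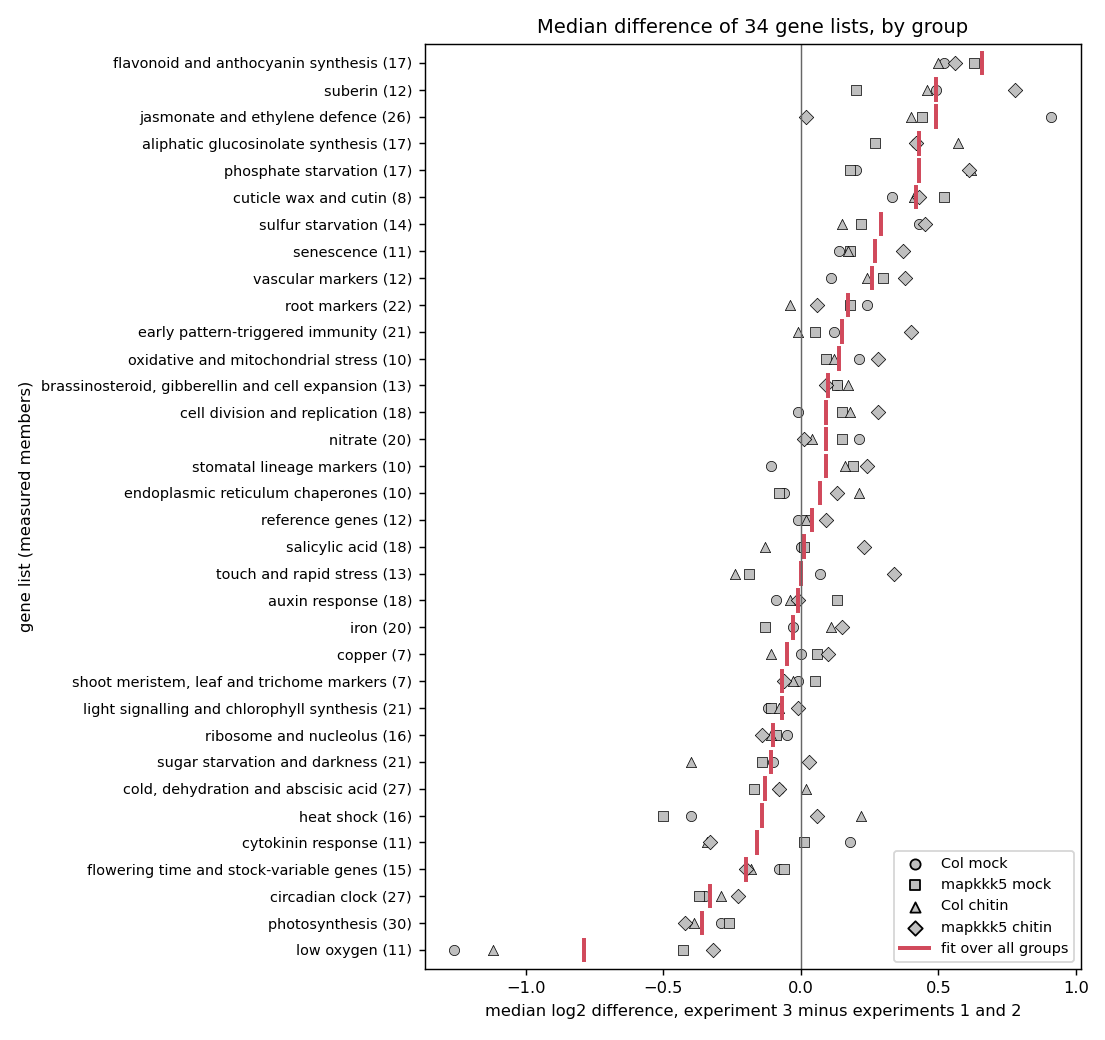
Median log2 difference of experiment 3 from experiments 1 and 2 (x axis) for 34 gene lists (y axis, measured members in brackets), as grey symbols for the 4 groups and a red bar for the fit over all groups. The seed storage list is not drawn, the flavonoid list is highest at 0.66 and the low-oxygen list lowest at -0.79.

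Set against each experiment alone, experiment 3 differed from experiment 1 at 3237 genes (15.4%) and from experiment 2 at 2844 (13.5%), while experiments 2 and 1 differed at 2142 (10.2%). These 3 comparisons share libraries in pairs. Genes called beyond 2-fold numbered 139 higher and 120 lower in experiment 3 than in experiment 1, 123 and 137 against experiment 2, but 23 and 21 in experiment 2 against experiment 1. The count of 3237 was 1655 without Col chitin of experiment 1, 2009 without Col mock of experiment 1 and 2116 without Col chitin of experiment 3. That of 2844 was 1252 without mapkkk5 chitin and 1404 without mapkkk5 mock of experiment 2, and 1525, 1604 and 1799 without mapkkk5 mock, mapkkk5 chitin and Col chitin of experiment 3. That of 2142 was 840 to 1147 without any of 5 libraries, mapkkk5 mock or chitin of experiment 2 and mapkkk5 chitin, Col mock or Col chitin of experiment 1. Upper-quartile scaling moved the share of higher genes against experiment 2 from 56.5% to 45.1%, and that in experiment 2 against experiment 1 was 57.0% as reported, 50.2% under RLE scaling and 48.7% with DESeq2, so neither balance of directions is independent of the scaling. Of the 18 antenna genes, 17 were lower in experiment 3 than in experiment 1 (median -1.49, against 5.99% of all genes), 17 lower than in experiment 2 (-1.07, against 5.9%) and 12 lower in experiment 2 than in experiment 1 (-0.39, against 4.39%), with 1 higher in each. Among the 27 clock genes 13, 11 and 7 were lower in the same order, against the same shares of all genes. Of the 17 glucosinolate genes, 12, 13 and 3 were higher, against 9.43%, 7.65% and 5.82% of all genes. Of the 11 low-oxygen genes 5, 9 and 0 were lower, against 5.99%, 5.9% and 4.39% of all genes.

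The difference of experiment 3 could also depend on treatment. No gene (0 of 20994, 0.0%) passed the edgeR test of whether it differed between chitin and mock, 723 had an unadjusted p below 0.05 and DESeq2 called 23. The rule for named genes gave NRT2.6, a nitrate transporter gene, and BGLU11, a beta-glucosidase gene with a term of -1.01 ± 0.14 (adjusted p = 0.175). NRT2.6 was read at 37.1, 19.2, 43.4 and 35.7 CPM in experiment 1, 32.8, 19.7, 76.3 and 36.3 in experiment 2 and 18.8, 17.1, 132 and 90.2 in experiment 3. In chitin libraries experiment 3 was the highest and in mock libraries the lowest, with a term of 1.78 ± 0.26 (adjusted p = 0.185). That term was called without Col chitin of experiment 1 (adjusted p = 0.0111) or of experiment 2 (0.0307).

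Genotype gave a different picture. The test of whether experiment 3 differed by another amount in mapkkk5 than in Col passed 7 genes (0.0333%), of which 6 had a higher (0.0286%) and 1 a lower value (0.00476%) of the term, and at 6 of them the Col libraries of experiment 3 stood apart from the other Col libraries. MRD1 (chromosome 1, 19963047 to 19964712 in TAIR10.1), named for its low expression in a mutant rich in methionine, was read at 71.4, 65.6, 59.5 and 57.5 CPM in experiment 1, 58.4, 66, 57.2 and 76 in experiment 2 and 1.05, 56.6, 3.3 and 57.4 in experiment 3. The 2 Col libraries of experiment 3 were near 0 and the 10 others at 56.6 CPM or more, with a term of 4.64 ± 0.32 (adjusted p = 5.25e-05). HEI10, encoding a crossover protein of meiosis that overlaps MRD1 on the other strand, was read at 8.48, 7.13, 18 and 13.8 CPM in experiment 1, 7.9, 7.97, 16.5 and 15.4 in experiment 2 and 2.86, 9.12, 3.45 and 14.5 in experiment 3. Again Col of experiment 3 alone was low (2.07 ± 0.22, adjusted p = 0.00256), and reads of the overlapping genes may not be told apart, since the sources used here do not give the strand setting of the counting.
AT3G29644, annotated as antisense to AT3G29642, was read at 5.74, 5.51, 6.33 and 5.95 CPM in experiment 1, 4.54, 7.53, 7 and 7.05 in experiment 2 and 0.526, 7.56, 0.811 and 7.63 in experiment 3. The same 2 libraries were the only low ones (3.36 ± 0.33, adjusted p = 0.00172). At 3 further genes Col and mapkkk5 differed in experiments 1 and 2, and Col of experiment 3 lay at the level of mapkkk5. AT1G26920 was read at 2.84, 23.4, 1.57 and 19.5 CPM in experiment 1, 3.6, 27.3, 1.53 and 19.7 in experiment 2 and 25.4, 21.2, 18.1 and 19.7 in experiment 3. It was low only in Col of experiments 1 and 2 (-3.37 ± 0.2, adjusted p = 1.46e-05). AT4G16940, next to the resistance gene RPP5, was read at 15.8, 0.835, 30 and 1.28 CPM in experiment 1, 19.3, 0.6, 24.6 and 0.338 in experiment 2 and 1.05, 1.19, 1.47 and 1.26 in experiment 3. It was high only in Col of experiments 1 and 2 (4.8 ± 0.52, adjusted p = 0.00256). ARP9, an actin-related protein gene, was read at 34.8, 17.1, 35.9 and 16.6 CPM in experiment 1, 38.2, 15.8, 34.9 and 16.2 in experiment 2 and 17, 17.9, 19.3 and 19.6 in experiment 3. Its Col libraries of experiments 1 and 2 lay at 34.8 CPM or more and all others at 19.6 CPM or less (1.16 ± 0.15, adjusted p = 0.0128).
The last gene differed on the mutant side. AT2G02630 was read at 4.76, 0, 4.83 and 0 CPM in experiment 1, 6.25, 0, 5.13 and 0 in experiment 2 and 8.12, 3, 3.8 and 2.41 in experiment 3. No read was counted in the 4 mapkkk5 libraries of experiments 1 and 2, while those of experiment 3 held 48 reads in mock and 42 in chitin, at least 18-fold and 14.2-fold above the floor of 3 reads per library, with an adjusted p of 0.00256 for the term. In mapkkk5 its neighbours AT2G02610 and AT2G02620 lay at 0.0557 to 0.282 and 0 to 0.0532 CPM in experiments 1 and 2. In experiment 3 AT2G02610 was at 1.44 CPM in mapkkk5 mock and 2.12 in mapkkk5 chitin, and AT2G02620 at 0.812 and 0.459. Neither neighbour passed the test of the term (adjusted p = 0.326 and 0.774). AT2G02640, on the other side, went the opposite way and did not pass either. It was at 0 to 0.2 CPM in all Col libraries and at 0.85 to 1.64 CPM in mapkkk5 of experiments 1 and 2. In mapkkk5 of experiment 3 it was lower, at 0.687 CPM in mock and 0.344 in chitin. Of the 7 genes that passed, AT1G26920 and MRD1 were called without any 1 library of experiment 3 and the other 5 were not (adjusted p = 0.0611 to 0.82). ARP9 was also not called without Col chitin of experiment 1 (0.0571) or mapkkk5 mock of experiment 2 (0.0525).

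**Figure D5:**
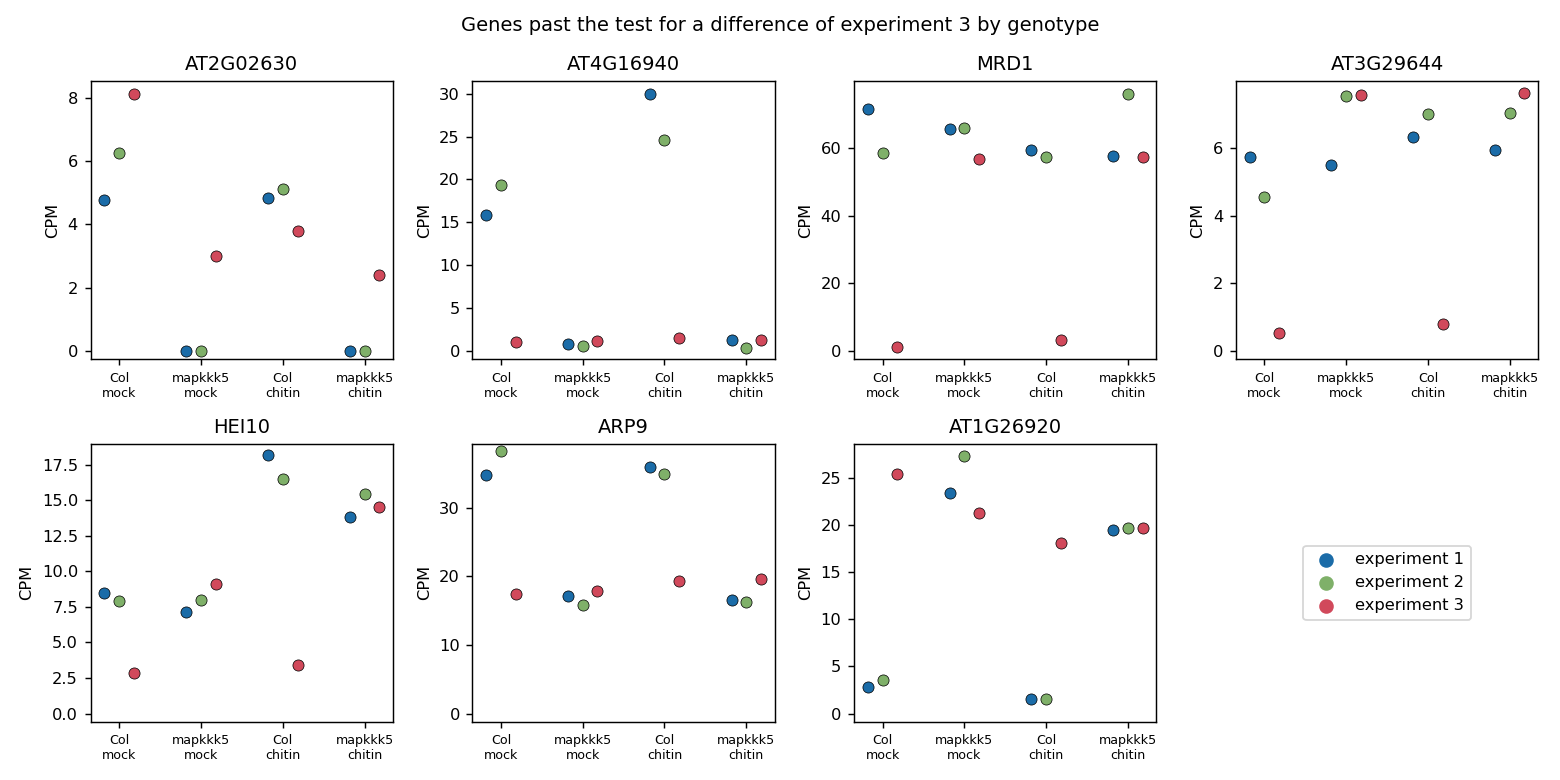
CPM (y axis, linear) of the 7 genes past the test for a difference of experiment 3 by genotype, by group (x axis) and coloured by experiment, 1 point per library. At MRD1 the 2 Col libraries of experiment 3 lie at 1.05 and 3.3 CPM, and at AT4G16940 they lie at 1.05 and 1.47 CPM beside the mapkkk5 libraries.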

How the data were processed

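RNA of seedlings was sequenced as poly(A) libraries, and what the authors deposited is 1 table of unnormalized counts of reads (32678 genes, 12 libraries). Tools listed in the submitters' processing notes are HTSeq 0.6.1, TopHat2 2.0.10, cutadapt 1.5 and CASAVA 1.8.2, with the build TAIR10. The sources used here do not give the strand setting of the counting. Library totals of 15455836 to 20179428 reads set the precision, and floors of 3 reads cover counting error only.

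Counts were tested with edgeR 4.0.16 in R 4.3.3 (TMM scaling, expression filter on the 4 groups, quasi-likelihood test, two-sided, Benjamini-Hochberg adjustment over the 20994 genes tested), with group and experiment 3 as terms. A second fit added experiment 3 by chitin and by genotype, and another had the experiment as 3 levels. Standard errors came from the log2 difference and its F value. DESeq2 1.42.0, other scalings and filters, the replicate number as a block and the omission of libraries were alternatives. The procedure was also run on simulated counts with known changes. Apart from those changes the counts were drawn independently, so error rates under effects shared by same-numbered libraries were not checked. Gene names, positions and promoters came from RefSeq TAIR10.1. Figures were drawn with matplotlib 3.10.9.

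The comparison and the 35 gene lists (606 genes, 567 measured) were chosen with earlier results of these data known. Named genes were up to 12 with a symbol in each direction with the largest difference and experiment 3 on the same side in all 4 groups, up to 4 list members per direction with the smallest p, up to 5 per term and direction, or the 2 with the smallest p where a term had no call, and MAPKKK5. Other list members, antenna genes by symbol, RGF genes and genotype-term genes without a symbol were named after their values were seen. No label says that libraries of a group came from separate cultures beyond the 3 independent experiments, so p-values measure the spread between these libraries. The 4 libraries of experiment 3 share that experiment as read here, yet the test counts them as separate. The p-values therefore do not tell how far a further experiment would differ.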

Additional observations from a re-analysis of the deposited data

Results flagged for a closer look

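At 7 genes the difference between mapkkk5 and Col was not the same in experiment 3 as in experiments 1 and 2, by the edgeR test of that difference itself with Benjamini-Hochberg adjustment over 20994 genes. The term was 4.64 on the log2 scale at MRD1, 2.07 at HEI10, which overlaps it, and 3.36 at AT3G29644, where the 2 Col libraries of experiment 3 were low. It was 4.8 at AT4G16940, 1.16 at ARP9 and -3.37 at AT1G26920, where the Col libraries of experiment 3 lay at the level of the mutant. At AT2G02630 the fitted term was 8.5, a value that depends on the prior count because 4 mapkkk5 libraries held no read. No cause was tested for any of the 7.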

How the results depend on the processing

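The 1835 calls became 1824 under RLE scaling, 1820 under upper-quartile scaling, 2150 with DESeq2, 1976 without a filter and 1802 with a stricter one. They numbered 484 in mock libraries only, 276 in chitin libraries only, 533 in Col libraries only and 81 in mapkkk5 libraries only, where fewer libraries entered, and 158 without both Col and 304 without both mapkkk5 libraries of experiment 3, omissions chosen after seeing the data. The replicate number as a block gave 3151 calls, which included all 1835, with 6 calls for the chitin term and 9 for the genotype term. Of 18 correlations between same-numbered libraries 17 were 0.16 to 0.51 and 1 was -0.04. Pairing was to be taken from these only with every pair above 0.1, so the block stayed an alternative, although all 12 libraries correlated best with one of their own number. The chitin term had 0 calls as reported, 23 with DESeq2 and 6 without a filter. Leaving out 1 library or 1 replicate number gave 807 to 3101 calls for experiment 3 against experiments 1 and 2, 0 to 340 for the chitin term, 2 to 223 for the genotype term, 1655 to 3514 against experiment 1, 1252 to 2920 against experiment 2 and 840 to 2327 for experiment 2 against experiment 1. Among members without a call, some signs reversed. MYB28 was at -0.02 in mock and -0.05 in mapkkk5 libraries only or without both Col libraries of experiment 3, WRKY33 at -0.02 and FRK1 at -0.37 in mock libraries only. PRR9 was at -0.19 in chitin libraries only and -0.72 without both mapkkk5 libraries of experiment 3. RVE8 was at -0.02 under upper-quartile scaling, -0.01 with DESeq2, -0.34 in mock and -0.3 in mapkkk5 libraries only or without both Col libraries of experiment 3. Leaving out 1 library or number gave -0.1 to 0.19 for MYB28, -0.25 to 0.39 for PRR9 and -0.39 to 0.52 for RVE8. The cause of these changes was not tested. Depth limits genes near 0.2 CPM, where 3 reads are the floor.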

Other observations

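Some lists differed between treatments in how far experiment 3 stood from the others. The median of 17 phosphate starvation genes was 0.20 in Col mock and 0.18 in mapkkk5 mock but 0.62 in Col chitin and 0.61 in mapkkk5 chitin. The 16 heat shock genes had medians of -0.40 and -0.50 in the mock groups and 0.22 and 0.06 in the chitin groups. Neither contrast was tested.

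Shorter genes were called more often. With the genes cut into 4 equal classes by span, 11.2% of the shortest class were called, with a median difference of -0.06, and 6.9% of the longest, with a median of 0.05.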
